A study of Arabidopsis thaliana with 102 samples.

Results

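The genes described here are the 46 nuclear genes of *Arabidopsis thaliana* for photosystem subunits, light-harvesting antenna proteins and the small subunit of Rubisco. They were taken by name from the 34133 genes of the deposited expression table. The rule uses no measured value, but the set was chosen with earlier results of these data known. It comprised 14 genes of the photosystem II (PSII) antenna, 6 of the photosystem I (PSI) antenna and 12 of PSI subunits. It also held 10 genes of PSII subunits and 4 RBCS genes. All 46 passed the filter on low values, an FPKM, a read density scaled to transcript length and to library size, that exceeded 1 in some library, and were tested with all other genes that passed it. The seedlings were 5 days old and had been treated for 6 h with 500 ng/mL tunicamycin (Tm), an inhibitor of protein N-glycosylation that causes ER stress, or with its solvent DMSO as mock, and were then moved to drug-free medium. Whole seedlings of Col-0 and of the T-DNA insertion lines *bzip28-2* and *bzip60-2*, each with an insertion in the gene of a transcription factor of the unfolded protein response (UPR), were harvested after 0, 12 or 24 h of recovery, as 3 replicates of 12 seedlings in each of 18 groups. Binding of the factors was measured by ChIP-seq in GFP-bZIP28 seedlings, driven by the 35S promoter in Col-0, and in GFP-bZIP60 seedlings, driven by its own promoter in *bzip60-2*. Each mutant was represented by 1 insertion line. Seedlings grew under 16 h of light and 8 h of dark, and the clock time of harvest is not given in the sources used here.

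PSII and PSI are the pigment-protein complexes of the thylakoid membrane that turn light into electron flow. LHCB proteins form the antenna of PSII and LHCA proteins that of PSI, and the RBCS proteins are the nuclear-encoded subunit of Rubisco, the CO2-fixing enzyme of the stroma. The reaction centre proteins and the large subunit of Rubisco are encoded in the plastid. In seedlings, the nuclear genes are expressed mainly in green shoot cells, are induced by light, depend on GLK transcription factors and follow the day. Libraries of poly(A) RNA from whole seedlings hold shoot and root together, so that fewer green cells and less RNA per green cell cannot be told apart.

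The sequences of near-identical copies show where reads could not be assigned. The LHCB1 genes encode the most abundant antenna protein, and their first 60 coding bases, in TAIR10.1 coordinates, are printed with capitals at bases that differ from LHCB1.1. The copies LHCB1.1 at chr1:10475833-10475892 (-), LHCB1.2 at chr1:10473187-10473246 (-) and LHCB1.3 at chr1:10478071-10478130 (+) are neighbours, as are LHCB1.4 at chr2:14524818-14524877 (+) and LHCB1.5 at chr2:14523454-14523513 (-).
LHCB1.1: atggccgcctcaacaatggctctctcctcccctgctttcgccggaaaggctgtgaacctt
LHCB1.2: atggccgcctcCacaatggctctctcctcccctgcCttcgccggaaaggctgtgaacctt
LHCB1.3: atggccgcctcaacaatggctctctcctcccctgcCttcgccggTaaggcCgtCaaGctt
LHCB1.4: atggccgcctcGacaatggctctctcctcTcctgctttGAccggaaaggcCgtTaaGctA
LHCB1.5: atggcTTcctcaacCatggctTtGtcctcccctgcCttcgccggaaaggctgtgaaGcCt
LHCB1.2 differed from LHCB1.1 at 2 of these bases, LHCB1.3 at 5, and LHCB1.4 and LHCB1.5 at 8 each. Of all 50-base windows in its exons, the length of the reads, LHCB1.1 shared 20.5% with another place in the genome, LHCB1.2 10.6%, LHCB1.3 17.0%, LHCB1.4 13.7% and LHCB1.5 17.3%.

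The RBCS genes fell into RBCS1A on chromosome 1 and 3 tandem copies on chromosome 5. Their first 60 coding bases are shown with capitals at bases that differ from RBCS2B, for RBCS2B at chr5:15381919-15381978 (-), RBCS1B at chr5:15385096-15385155 (-), RBCS3B at chr5:15378247-15378306 (-) and RBCS1A at chr1:25049190-25049249 (-).
RBCS2B: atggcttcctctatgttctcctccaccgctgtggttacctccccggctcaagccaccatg
RBCS1B: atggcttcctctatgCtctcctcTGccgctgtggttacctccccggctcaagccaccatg
RBCS3B: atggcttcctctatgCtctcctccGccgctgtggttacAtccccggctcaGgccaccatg
RBCS1A: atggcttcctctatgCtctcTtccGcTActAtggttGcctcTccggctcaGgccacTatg
RBCS1B, RBCS3B and RBCS1A differed from RBCS2B at 3, 4 and 10 of these bases. The tandem copies shared 12.0% (RBCS1B), 16.9% (RBCS2B) and 19.7% (RBCS3B) of their 50-base windows with other places, and RBCS1A shared none. LHCB2.1, LHCB2.2 and LHCA2 shared 23.5%, 29.5% and 11.4%, and the remaining 35 members, RBCS1A among them, shared none, so values of these 11 genes are uncertain as single-copy levels. A gene antisense to LHCB1.5 overlaps it, and whether the FPKM used strand is not given in the sources used here.

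In the whole series, relative library depth, read from the steps in FPKM of low genes, ran from 0.843 to 1.27, and summed FPKM from 819070 to 918450 per library. Genes of the UPR marked the Tm treatment. BIP3, an ER chaperone, stood at 2.15, 2.00 and 2.15 FPKM in Col-0 DMSO at 0 h and at 629, 711 and 625 FPKM in Tm. Whole-gene FPKM sums transcript on both sides of an insertion and so checks the mutant labels only in part. In Tm, *BZIP60* was lower in *bzip60-2* than in Col-0 at each time (95.4 to 119 against 205 to 216 FPKM at 0 h). In DMSO the ranges overlapped at 0 h and 24 h. In DMSO at 12 h *BZIP60* was higher in *bzip60-2* (27.6 to 35.0 against 22.2 to 24.9 FPKM). *BZIP28* at 12 h stood at 7.61 to 7.80 FPKM in Col-0 DMSO and 19.2 to 20.5 FPKM in Tm, and in *bzip28-2* at 9.44 to 10.8 and 10.4 to 11.9 FPKM, while at 0 h it was higher in *bzip28-2* than in Col-0. The Tm response of ERDJ3B, an ER co-chaperone, was lower in *bzip28-2* than in Col-0 at 12 h (difference in log2 fold change -1.38, adjusted p = 0.0203, limma). Summed FPKM of the shoot and of the root marker lists was above 0 in every library, and ESB1 was the root marker that stayed under 1 FPKM throughout. In *bzip28-2* Tm at 24 h, replicate 2 stood apart, with 624 FPKM for the sum of 5 ER stress genes against 1083 and 1319 in the other replicates. In *bzip60-2* DMSO at 24 h, the root markers summed to 138 FPKM in replicate 2 and to 316 and 225 in the others. Tests of members at 24 h in the mutants that include these libraries are given with and without them.

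Together, the 46 genes took between 1.94% and 19.0% of all summed FPKM. In Col-0 DMSO libraries the share was 9.11%, 9.04% and 9.78% at 0 h (9.31% ± 0.41, SD, n = 3), 14.3%, 12.5% and 12.5% at 12 h (13.1% ± 1.0) and 19.0%, 14.1% and 16.5% at 24 h (16.5% ± 2.5). In Col-0 Tm libraries it was 8.70%, 8.40% and 7.86% at 0 h (8.32% ± 0.42), 9.61%, 8.72% and 7.0% at 12 h (8.44% ± 1.33) and 5.87%, 4.74% and 4.77% at 24 h (5.13% ± 0.65). Thus the mean share in the mock seedlings was higher at each later time-point, although the 12 h and 24 h libraries overlapped and the share was not tested. The share of the RBCS genes alone had means of 3.12%, 4.60% and 3.11% at 0, 12 and 24 h in Col-0 DMSO. The Tm libraries lay below every mock library of the same time, with the widest gap at 24 h.

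**Figure D1:**
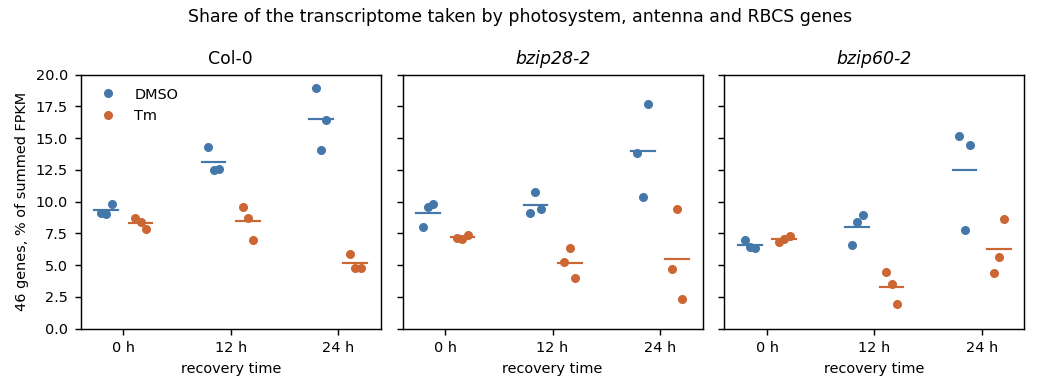
Share of summed FPKM (%) taken by the 46 genes in each library (points) and the mean of 3 replicates (lines) for DMSO and Tm at 0, 12 and 24 h of recovery, with 1 panel per genotype. In Col-0 at 24 h the DMSO libraries sit between 14.1% and 19.0% and the Tm libraries between 4.74% and 5.87%.

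In the mutants, the replicates at 24 h lay further from each other. In *bzip28-2* it was 13.8%, 10.4% and 17.7% in DMSO and 4.66%, 9.40% and 2.35% in Tm, where the high value belonged to replicate 2, the library with the low ER stress genes. In *bzip60-2* it was 15.2%, 7.76% and 14.5% in DMSO and 4.37%, 5.65% and 8.65% in Tm, so that the groups overlapped through DMSO replicate 2. The lowest value of all, 1.94%, was *bzip60-2* Tm replicate 3 at 12 h, whose group had 4.42% and 3.52% in the other replicates against 6.60%, 8.39% and 8.94% in DMSO.

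FPKM is scaled to transcript length, so levels can be set side by side between genes. RBCS1A had the highest mean level over the 54 libraries, 14766 FPKM, followed by LHCB1.3 with 4941 FPKM and RBCS3B with 3714 FPKM. At the low end stood LHCA6 with 52.3 FPKM, LHCB4.3 with 80.3 FPKM and LHCA5 with 105 FPKM. LHCA5 and LHCA6 are minor antenna proteins that link PSI to the NDH complex, and LHCB4.3, also called LHCB8, is the least expressed of the CP29 genes. The levels of 10 plastid-encoded photosynthesis genes, rbcL and psbA among them, were listed at 0 in every library and are not described.

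The first comparison set Tm against DMSO at the end of the treatment, at 0 h of recovery. In Col-0, LHCB1.4 rose and no other member passed an adjusted p of 0.05 (limma on log2(FPKM + 1), Benjamini-Hochberg adjustment over the 21864 genes tested). At this threshold, 1.59% of all genes were higher and 2.03% were lower. At an unadjusted p under 0.05, 2 members were higher and 9 lower, and the median log2 fold change of the 46 was -0.17 against 0.00 over all genes. The share of all genes at an unadjusted p was not taken, here or below. In *bzip60-2*, LHCB1.4 again was the sole member that rose (background 1.33% higher, 2.36% lower), with a members' median of 0.06. In *bzip28-2*, RBCS1B was the sole member that fell (log2 fold change -0.79, adjusted p = 0.0377, background 4.44%), and the median was -0.45. Tm libraries lay wholly below the DMSO libraries for 17 members (Col-0), 26 members (*bzip28-2*) and 2 members (*bzip60-2*). How many of all genes did so was not counted, so these numbers cannot be set against a background.

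LHCB1.4 (AT2G34430) is a copy of the major LHCII protein. In Col-0 at 0 h it measured 214, 228 and 266 FPKM in DMSO and 897, 1119 and 805 FPKM in Tm, and in *bzip60-2* 331, 259 and 251 against 1226, 1576 and 1264 FPKM. In *bzip28-2* the values were 277, 462 and 559 FPKM in DMSO and 634, 471 and 865 FPKM in Tm, and the groups overlapped. The increase was 3.95-fold in Col-0 (log2 fold change 1.98, SE 0.15, adjusted p = 0.00375) and 4.83-fold in *bzip60-2* (2.27, SE 0.16, adjusted p = 0.00306), while in *bzip28-2* it was 1.53-fold (0.62, SE 0.34) and did not pass (adjusted p = 0.294, limma). The log2 fold change was lower in *bzip28-2* than in Col-0 by a difference of -1.37 (95% interval -2.20 to -0.53) and did not pass after adjustment over all genes (adjusted p = 0.63, limma, or 0.479 without pairing libraries by replicate number). Over 13 other settings of the processing, the Col-0 value stayed between 1.85 and 2.09 and the *bzip60-2* value between 2.16 and 2.40, and 12 of the 13 kept an adjusted p under 0.05 in each.

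The direction for LHCB1.4 turned during recovery. At 12 h in Col-0 all Tm libraries were above all DMSO libraries (log2 fold change 0.51, adjusted p = 0.0519), and likewise in *bzip60-2* (1.51, adjusted p = 0.052), so neither passed, although 5 of the 13 other settings passed in Col-0 and 2 in *bzip60-2*. At 24 h it fell 5.40-fold in Col-0, from 4067, 2012 and 2936 FPKM in DMSO to 676, 395 and 568 FPKM in Tm (log2 fold change -2.43, SE 0.33, adjusted p = 0.00273). The Tm libraries at 24 h lay below those at 0 h, which was not tested, while the mock libraries had climbed from between 214 and 266 FPKM to between 2012 and 4067 FPKM (DMSO 24 h against 0 h, 3.61, SE 0.27, adjusted p = 0.00238). At 24 h the log2 fold change was -2.59 in *bzip28-2* (adjusted p = 0.0859) and -0.34 in *bzip60-2* (adjusted p = 0.735, limma). Without the libraries that stood apart it was -3.39 in *bzip28-2*, which passed (adjusted p = 0.0318), and -1.03 in *bzip60-2* (adjusted p = 0.114), where it was 0.014 without DMSO replicate 3. In contrast, LHCB1.3 (AT1G29930) had 3724, 4596 and 4445 FPKM in Col-0 DMSO at 0 h against 3667, 3548 and 2947 FPKM in Tm, and its decline at 24 h, from 12586, 9628 and 11564 to 3514, 2277 and 2519 FPKM, was the same in direction as that of LHCB1.4.

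**Figure D2:**
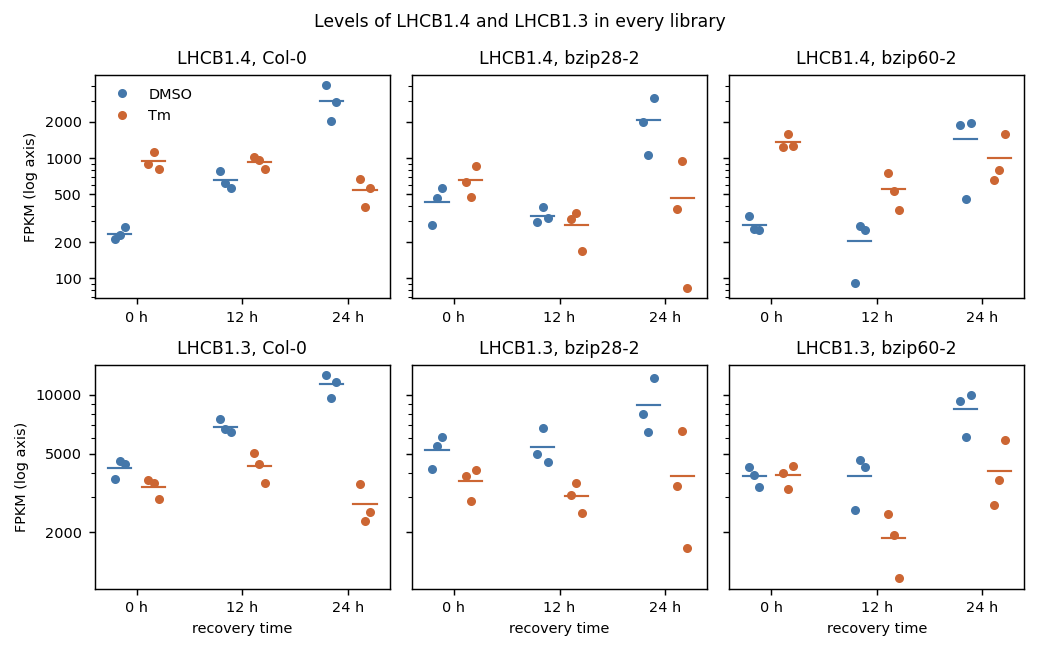
FPKM on a log axis of LHCB1.4 and of its copy LHCB1.3 in every library (points) with group means (lines), for DMSO and Tm at 0, 12 and 24 h in the 3 genotypes. LHCB1.4 is higher in Tm at 0 h in Col-0 (805 to 1119 against 214 to 266 FPKM) and lower in Tm at 24 h (395 to 676 against 2012 to 4067 FPKM).

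LHCB1.4 was also among the few members with a binding peak. The deposited lists hold peaks of GFP-bZIP28 and GFP-bZIP60 in Tm-treated seedlings that the authors kept across 2 replicates. Each peak has a score, the fold enrichment of MACS2. A bZIP28 peak at chr2:14524317-14524696 at 0 h (score 4.64, median of the list 4.16) ran from 290 bases upstream of the LHCB1.4 start to 89 bases into its 5′ leader, and a peak at chr2:14524291-14524730 covered it at 24 h (score 9.09, median 3.52). Because LHCB1.5 lies in divergent orientation 1038 bases away, the same peaks also lay within 1 kb of its start. LHCB4.3 had a bZIP28 peak at 24 h at chr2:16745061-16745583, 567 to 45 bases upstream (score 4.22), and a bZIP60 peak of 1800 bases at 24 h (score 3.91). Altogether, bZIP28 peaks within 1 kb of a start were found for 2, 0 and 3 of the 46 members at 0, 12 and 24 h, against 0.630%, 0.463% and 1.17% of 27444 protein-coding genes. For bZIP60 the members numbered 0, 0 and 1, against 1.16%, 0.401% and 0.641% of genes.

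**Figure D3:**
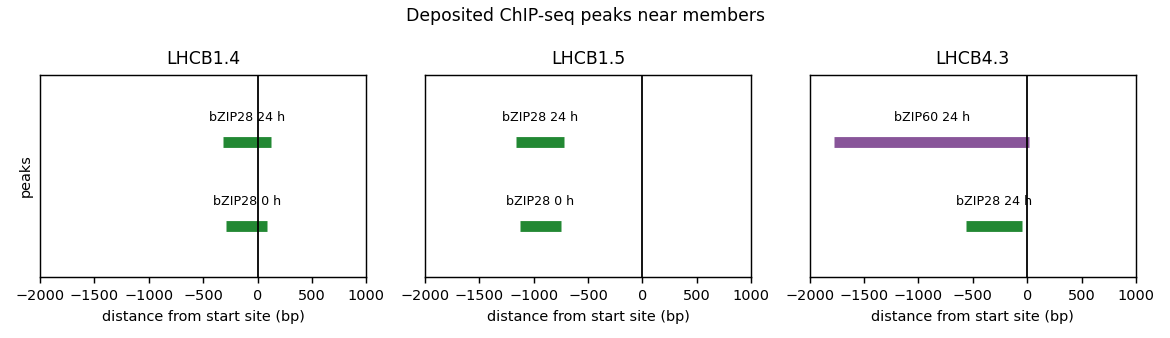
Deposited ChIP-seq peaks near members, drawn as bars by distance in bases from the annotated start site (0), coloured by protein and time-point. For LHCB1.4 the bZIP28 peaks of 0 h (290 bases upstream to 89 downstream) and 24 h span the start site.

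The upstream stretch under the 0 h peak is shown, chr2:14524317-14524606 on the plus strand of TAIR10.1, ending at the base before the annotated start. Capitals mark matches, on either strand, to CCAAT, part of the ER stress response element, and to TGACGTG, part of an element bound by UPR factors. The first run holds both, overlapping by 1 base. The paper writes the latter element as TGACGT-GG/A, with G or A after TGACGTG, and both matches here are followed by T on their own strand. The stretch thus holds no full copy of it, and the full form was not counted over the genes.
LHCB1.4 promoter: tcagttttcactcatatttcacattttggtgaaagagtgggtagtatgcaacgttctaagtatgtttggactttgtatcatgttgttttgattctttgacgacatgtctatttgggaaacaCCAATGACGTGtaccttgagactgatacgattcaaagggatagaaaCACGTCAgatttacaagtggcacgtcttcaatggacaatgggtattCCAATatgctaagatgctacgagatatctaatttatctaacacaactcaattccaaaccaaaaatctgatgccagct
The run CCAATGACGTG lies 169 to 159 bases upstream, at chr2:14524438-14524448. In the 500 bases upstream of the start, searched on both strands, TGACGTG was present in 8 of 46 members, which were LHCB1.3, LHCB1.4, LHCB2.3, LHCA2, PSAE1, PSAE2, PSBO2 and PSBQ2, and in 4.33% of all protein-coding genes. The full element CCAATNNNNNNNNNNCACG was in none of the members and in 0.958% of genes. CACGTG, the G-box of light-regulated promoters, was in 10 members (9.35% of genes), GATAAG, the I-box, in 13 (22.4%), CCAAT in 34 (69.2%), and AAAATATCT, the evening element of clock-regulated promoters, in LHCA5 alone (4.44%). The other members with TGACGTG did not pass the test at 0 h. Since LHCB1.4 was the sole one of all 46 members that rose then, this says nothing about the element.

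At 12 h of recovery, Tm-treated Col-0 seedlings had lower levels of most members. Of the 46 genes, 29 fell and none rose, where 14% of all genes tested fell, and the members' median log2 fold change was -0.71 against 0.08 over all genes. Under the stricter rule, an adjusted p under 0.01 and a change over 2-fold, 7 members were called lower (1.78% of all genes). The Tm libraries lay wholly below the DMSO libraries for 43 members, and the share of all genes that did so was not taken. Leaving out DMSO replicate 1 left 12 members that fell and 1 called, DMSO replicate 3 left 13 and 1, and Tm replicate 2 left 16 and 2.

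The family medians at 12 h lay between -0.69 and -0.86. In the PSII antenna 7 of 14 genes fell (median -0.73), in the PSI antenna 4 of 6 (-0.73), among PSI subunits 8 of 12 (-0.71), among PSII subunits 8 of 10 (-0.69) and among RBCS genes 2 of 4 (-0.86). LHCB2.3 (AT3G27690), a copy of the LHCB2 antenna proteins that are phosphorylated in state transitions, had the largest decrease. It measured 853, 777 and 670 FPKM in DMSO and 291, 291 and 154 FPKM in Tm, 3.23-fold lower (log2 fold change -1.69, SE 0.28, adjusted p = 0.00522). LHCA6 (AT1G19150) measured 136, 137 and 128 against 58.1, 66.5 and 45.2 FPKM (-1.24, SE 0.14, adjusted p = 0.00145, limma). Among PSI subunits, PSAD2 (AT1G03130), a docking site of ferredoxin, measured 717, 549 and 528 against 370, 338 and 241 FPKM (-0.93, SE 0.21, adjusted p = 0.0151). In each of these genes the groups did not overlap.

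PSBS (AT1G44575), the PSII protein that triggers the heat dissipation of excess light, fell from 2683, 2517 and 2539 FPKM to 1304, 1296 and 1125 FPKM (-1.06, SE 0.13, adjusted p = 0.00204). RBCS1B (AT5G38430) fell from 4177, 2826 and 3793 to 1826, 1486 and 1416 FPKM (-1.18, SE 0.22, adjusted p = 0.00857). RBCS1A (AT1G67090), the most abundant copy, measured 28431, 21862 and 25010 FPKM in DMSO and 18166, 14664 and 14914 FPKM in Tm. Although these groups did not overlap, the log2 fold change of -0.66 had an SE of 0.75 and an adjusted p of 0.516 with limma's mean-variance trend, and an SE of 0.13 and an adjusted p of 0.0114 without it. Among the copies of LHCB1, LHCB1.1 (AT1G29920) fell (-1.32, adjusted p = 0.00594) from 2292, 2104 and 2218 to 1165, 894 and 663 FPKM, and LHCB1.2 fell (-0.82, adjusted p = 0.0206, limma). LHCB1.3 (-0.67), LHCB1.5 (-0.27) and LHCB4.3 (-0.07) did not pass.

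Both mutants were tested in the same way at 12 h. In *bzip28-2* 33 members fell (background 20.1%) and 12 were called lower (5.76%), with a median of -0.93. In *bzip60-2* 28 fell (19.1%) and 5 were called lower (6.13%), with a median of -1.36. There 40 members were over 2-fold lower against 10 in Col-0, and the share of all genes over 2-fold lower was not taken. PSBS was 2.83-fold lower in *bzip28-2* (log2 fold change -1.5) and 4.07-fold lower in *bzip60-2* (-2.02, adjusted p = 0.00194), where it measured 1686, 1970 and 1759 FPKM in DMSO and 550, 493 and 318 FPKM in Tm. LHCB2.3 was 6.17-fold lower in *bzip60-2* (-2.63, adjusted p = 0.0149) and RBCS1B 5.85-fold lower (-2.55, adjusted p = 0.00887, limma). RBCS1B measured 1733, 2396 and 3337 FPKM in *bzip60-2* DMSO and 573, 579 and 207 FPKM in Tm. The called count in *bzip60-2* ran from 0 to 2 when any library was left out, the lowest without Tm replicate 2. The count of members that fell there ran from 13, without DMSO replicate 3, to 34.

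Whether the Tm response differed from Col-0 was tested on the difference in log2 fold change, taken between Tm and DMSO libraries of the same replicate number. Pairing by number was weak and uneven between genotypes, and the counts of 0 in the mutants were also 0 without the pairing. At 12 h no member passed an adjusted p of 0.05 in *bzip28-2* (background 3.39%) or in *bzip60-2* (3.46%). At an unadjusted p under 0.05 the response was lower for 8 members in *bzip28-2* and for 3 in *bzip60-2*, with median differences of -0.22 and -0.64. At 0 h no member passed in either mutant (background 0.00457% in each), and at 24 h none in *bzip28-2* (background 0%) or *bzip60-2* (0.00457%). The median differences were -0.24 and 0.29 at 0 h and 0.11 and 0.77 at 24 h for *bzip28-2* and *bzip60-2*. At an unadjusted p under 0.05, 2 members differed in *bzip28-2* and 1 in *bzip60-2* at 0 h, and 0 and 6 at 24 h. Without replicate 2 at 24 h none passed in either mutant, the median differences were -0.53 and 0.45, and 3 members and 1 member had an unadjusted p under 0.05.

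**Figure D4:**
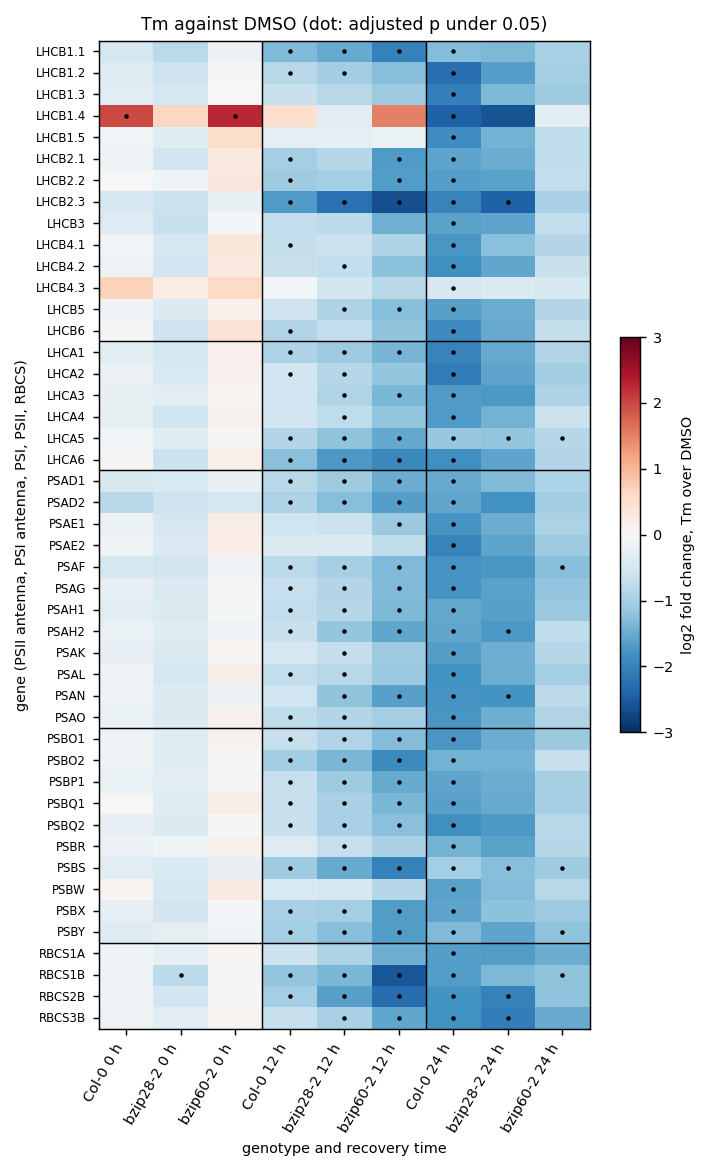
Log2 fold change, Tm over DMSO, of each of the 46 genes (rows, grouped by family) in 9 comparisons (columns, genotype and recovery time), with a dot where the adjusted p was under 0.05. In Col-0 at 24 h every row is below 0 and carries a dot, and LHCB1.4 is the row above 0 at 0 h in Col-0 and *bzip60-2* that carries one.

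At 24 h every member fell in Col-0. All 46 genes passed an adjusted p of 0.05 (background 16%) and 44 were called lower (3.22%). The Tm libraries lay wholly below the DMSO libraries for all 46, and the share of all genes that did so was not taken. The median log2 fold change was -1.69, or 3.22-fold lower, against 0.04 over all genes. It was -1.79 in the PSII antenna, -1.77 in the PSI antenna, -1.75 among PSI subunits, -1.58 among PSII subunits and -1.74 among RBCS genes. Both members that fell without being called were LHCB4.3, with the smallest change of -0.51, and RBCS1A (-1.66, SE 0.39, adjusted p = 0.0203, or 0.00066 without the trend). The count of called members ran from 9, without DMSO replicate 3, to 41.

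After LHCB1.4, the largest decrease was that of LHCB1.2 (AT1G29910), from 6930, 4552 and 5576 FPKM to 1576, 953 and 1076 FPKM, 4.77-fold lower (-2.25, SE 0.28, adjusted p = 0.00203). LHCA2 (AT3G61470), which encodes a core protein of the PSI antenna belt, measured 3146, 2087 and 2628 FPKM in DMSO against 829, 456 and 586 FPKM in Tm (-2.09, SE 0.27, adjusted p = 0.00247, limma). PSAE2 (AT2G20260), a stromal PSI subunit at the ferredoxin side, measured 1186, 830 and 994 against 307, 208 and 237 FPKM (-2.0, SE 0.20, adjusted p = 0.000939). In all of these genes the highest Tm library was well under the lowest DMSO library.

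PSBQ2 (AT4G05180), an extrinsic protein of the oxygen-evolving complex, fell from 2336, 1650 and 2063 FPKM to 657, 512 and 524 FPKM (-1.83, SE 0.18, adjusted p = 0.000947). RBCS3B (AT5G38410) fell from 6499, 4464 and 5286 FPKM to 1560, 1583 and 1388 FPKM (-1.83, SE 0.21, adjusted p = 0.00164), and RBCS1A measured 19654, 17022 and 19864 against 6054, 6954 and 5020 FPKM. Since copies share reads, sums were also taken for some of them, but not for LHCB1.4 with LHCB1.5. The summed FPKM of LHCB1.1 to LHCB1.3 was 21907, 16246 and 19259 in DMSO and 6224, 4010 and 4371 in Tm, and that of RBCS1B, RBCS2B and RBCS3B 10516, 7140 and 8926 against 2676, 2512 and 2342, so the decline was present in the sums. PSBS had the smallest change of the PSII subunits (-1.03).

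Most of the Col-0 genes had fallen further at 24 h than at 12 h. For 28 members the log2 fold change was lower at 24 h by an adjusted p under 0.05 (background 6.19%), with a median difference of -1.0. Without pairing by replicate number the count was 24. The difference was -2.95 for LHCB1.4 (SE 0.13, adjusted p = 0.0029, or SE 0.38 and adjusted p = 0.00121 without the pairing), -1.57 for PSAE2 and -1.51 for LHCA2, and it was 0.01 for LHCB1.1 and 0.03 for PSBS, both of which changed sign when 1 replicate was left out. The count was 5 without replicate 3 at 24 h or without replicate 2 at 12 h. In *bzip28-2* no member passed (background 1.34%, 0 at an unadjusted p under 0.05, median -0.60), nor in *bzip60-2* (background 3.4%, 1 at an unadjusted p under 0.05, median 0.44). Without replicate 2 at 24 h none passed either, and 22 and 1 had an unadjusted p under 0.05 (medians -1.31 and 0.12).

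In the mutants at 24 h, fewer members passed. In *bzip28-2* 7 fell (background 11.3%), none was called (1.8%), and 32 were lower at an unadjusted p under 0.05, although all 46 log2 fold changes were below 0 and their median was -1.52. RBCS2B (AT5G38420) measured 1976, 1875 and 2904 FPKM in DMSO and 521, 1115 and 277 FPKM in Tm (-2.02, SE 0.53, adjusted p = 0.0386, limma). As in the shares, Tm replicate 2 was the high library, and without it RBCS2B stood at -2.53 (adjusted p = 0.00978), 42 members fell and 4 were called, whereas none fell when any other library was left out. In *bzip60-2* 5 fell (background 11%), none was called (0.974%), and 21 were lower at an unadjusted p under 0.05, with a median of -0.94. RBCS1B, for example, measured 1736, 799 and 1440 FPKM in DMSO and 436, 541 and 685 FPKM in Tm (-1.21, SE 0.34, adjusted p = 0.0429). DMSO replicate 2 was the low library there, and without it RBCS1B stood at -1.54 (adjusted p = 0.00985), 28 members fell and 3 were called, against between 0 and 4 that fell when another library was left out. Tm libraries lay wholly below DMSO libraries for 29 members in *bzip28-2* and for 12 in *bzip60-2*. No share over all genes was taken for these counts or for those at an unadjusted p.

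The direct comparison of genotypes within a treatment addressed the level itself. In DMSO no member differed in *bzip28-2* at 0, 12 or 24 h (background 0.0274%, 0.0229% and 0.0229%), with medians of -0.06, -0.47 and -0.22 and with 1, 32 and 0 members at an unadjusted p under 0.05. In *bzip60-2* DMSO, none differed at 0 h (background 0.599%) and 24 h (0.0366%), and 1 was lower at 12 h (0.599%), which was PSAD2 (-1.0, SE 0.16, adjusted p = 0.0419, limma). The medians were -0.50, -0.79 and -0.48, and 30, 39 and 4 members had an unadjusted p under 0.05, all lower. The backgrounds given here are for an adjusted p, and none was taken for the unadjusted counts of either mutant. Without *bzip60-2* DMSO replicate 2 at 24 h none differed, with a median of -0.16 and 6 members at an unadjusted p under 0.05.

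In Tm at 12 h, 40 members were lower in *bzip60-2* than in Col-0 (background 13.5%), 2 of them called, LHCA5 (-1.15, SE 0.16) and PSBS (-1.49, SE 0.23), with a median of -1.45. LHCA5 (AT1G45474) measured 112, 106 and 101 FPKM in Col-0 and 53.0, 54.3 and 36.4 FPKM in *bzip60-2*. The count was 4 without Col-0 Tm replicate 1, 5 without Col-0 Tm replicate 2, 16 without *bzip60-2* Tm replicate 2 and 42 without *bzip60-2* Tm replicate 1. In *bzip28-2* 8 were lower (background 6.28%) with a median of -0.69, among them LHCB1.4 (-1.81, SE 0.29, adjusted p = 0.0207) and RBCS2B (-1.10, SE 0.20, adjusted p = 0.0271), and 0 without *bzip28-2* Tm replicate 1 or Col-0 Tm replicate 1 or 2.

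In Tm at 0 h, 3 members were lower in *bzip60-2* (background 1.19%), which were LHCB4.3, LHCA5 and RBCS2B, and none differed in *bzip28-2* (0.174%, 15 at an unadjusted p under 0.05). RBCS2B measured 1067, 1084 and 1393 FPKM in *bzip60-2* and 2823, 2598 and 2633 FPKM in Col-0 (-1.19, SE 0.14, adjusted p = 0.0302, limma). The count of 3 ran from 0 to 2 when any library was left out. In Tm at 24 h none differed in *bzip28-2* (background 2.34%) or *bzip60-2* (5.34%), with medians of -0.10 and 0.25 and with 0 and 1 members at an unadjusted p under 0.05. Without *bzip28-2* Tm replicate 2 none differed there, with a median of -0.62 and 5 members at an unadjusted p under 0.05.

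Mock seedlings gave the time course without Tm. Between 0 and 12 h in Col-0 DMSO, 23 members rose (background 8.98%) and none fell, with a median log2 fold change of 0.50 while that of all genes was -0.23. Between 0 and 24 h, 32 rose (background 11.1%) and none fell (median 1.02, all genes -0.04). Between 12 and 24 h, 17 rose (26.8%) and 5 fell (8.97%), with a median of 0.51 and of 0.16 over all genes. The 5 that fell were LHCB4.3, LHCA5, PSBS, RBCS1B and RBCS2B, and these genes had all risen between 0 and 12 h. The counts were 8 without DMSO 12 h replicate 1 for 12 against 0 h, 5 without DMSO 24 h replicate 3 for 24 against 0 h, and 13 without DMSO 12 h replicate 3 for 24 against 12 h.

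In mock seedlings most antenna genes had their highest mean at 24 h, and RBCS1B and RBCS2B had theirs at 12 h. From 0 to 24 h, 12 of 14 PSII antenna genes rose (median 1.35), 5 of 6 PSI antenna genes (1.11), 9 of 12 PSI subunits (0.96), 6 of 10 PSII subunits (0.89) and none of 4 RBCS genes (-0.10). LHCB1.2 measured 1324, 1344 and 1393 FPKM at 0 h, 1438, 1413 and 1416 FPKM at 12 h and 6930, 4552 and 5576 FPKM at 24 h (24 h against 0 h, 2.05, SE 0.21, adjusted p = 0.00463, limma). It did not pass between 0 and 12 h, and rose between 12 and 24 h. RBCS1B instead went from 1368, 1624 and 1978 FPKM at 0 h to 4177, 2826 and 3793 FPKM at 12 h (1.12, SE 0.23, adjusted p = 0.0162) and back to 1118, 792 and 1064 FPKM at 24 h (24 h against 12 h, -1.86, SE 0.22, adjusted p = 0.00318). RBCS1A measured 18583, 14993 and 20534 FPKM at 0 h, 28431, 21862 and 25010 at 12 h and 19654, 17022 and 19864 at 24 h and did not pass.

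LHCB4.3 (AT2G40100) had the sharpest transient. It measured 41.0, 71.5 and 68.0 FPKM at 0 h, 231, 208 and 197 FPKM at 12 h and 45.8, 42.4 and 40.7 FPKM at 24 h (12 h against 0 h, 1.84, SE 0.22, adjusted p = 0.00452; 24 h against 12 h, -2.27, SE 0.08, adjusted p = 0.000197, limma). PSBO2 (AT3G50820), a copy of the manganese-stabilizing protein of PSII, went from 510, 571 and 528 FPKM to 1248, 1164 and 1170 FPKM by 12 h (1.15, SE 0.09) and stood at 1278, 846 and 1034 FPKM at 24 h. In both mutants members also rose from 0 to 24 h, 9 in *bzip28-2* (background 9.71%, median 0.78) and 15 in *bzip60-2* (11.7%, median 1.00). Without DMSO 24 h replicate 2 the counts were 18 and 41, and without any other library they were at most 3 and 2.

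**Figure D5:**
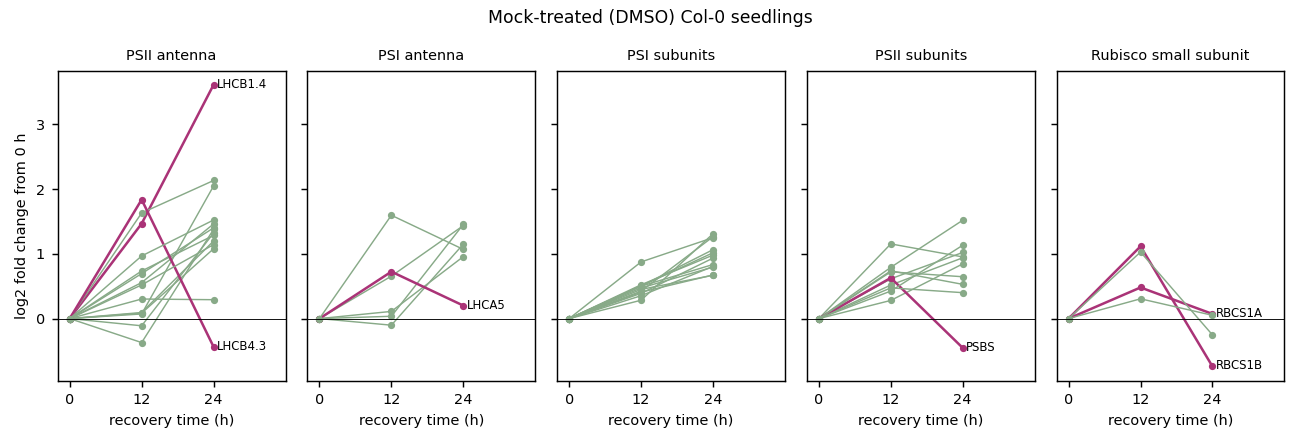
Log2 fold change from 0 h in Col-0 DMSO seedlings at 12 and 24 h of recovery, with 1 line per gene and 1 panel per family. Most antenna lines climb to 24 h (LHCB1.4 to 3.61), whereas RBCS1B peaks at 12 h (1.12) and LHCB4.3 returns from 1.84 at 12 h to below 0.

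Time of day, age and time since transfer cannot be told apart in these mock groups. The labels place 0 and 24 h at nominally the same clock time, but the clock time of harvest is not given. Clock genes moved with the time-points. CCA1, a morning-phased clock gene, measured 45.0, 37.5 and 38.0 FPKM at 0 h, 56.3, 55.7 and 62.6 FPKM at 12 h and 14.5, 14.3 and 12.2 FPKM at 24 h in Col-0 DMSO, so that time-points 24 h apart differed (-1.49, SE 0.11, adjusted p = 0.00219, limma). TOC1, an evening-phased clock gene, measured 19.8, 18.7 and 16.5 FPKM, then 11.1, 12.9 and 11.3, then 25.6, 29.0 and 34.2. Of 11 clock genes, 3 rose and 6 fell between 0 and 12 h, and 6 rose and 3 fell between 0 and 24 h. Of all genes, 8.98% rose to 12 h and 11.1% to 24 h, and the shares that fell were not taken. Of 3 dark-inducible genes, DIN1 and DIN6 rose from 0 to 24 h by log2 fold changes of 3.53 and 2.2, DIN10 stood at 0.59 (adjusted p = 0.127, limma), and their sum went from between 55.3 and 97.1 FPKM to between 112 and 160.0 FPKM.

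The clock genes also differed between Tm and DMSO in Col-0. At 24 h, CCA1 was higher in Tm, with 28.5, 37.1 and 30.5 FPKM (1.17, SE 0.12, adjusted p = 0.00118, limma), LHY was higher by 1.97, and TOC1 was lower by -0.44 (adjusted p = 0.0448). Of the 11 genes, 4 rose and 5 fell at 24 h, and 3 rose and 2 fell at 12 h, when CCA1 was lower (-0.56, adjusted p = 0.0359, limma). Of all genes, 16% fell at 24 h and 14% at 12 h, and the shares that rose were not taken. At 0 h CCA1 measured 37.4, 41.8 and 48.4 FPKM in Tm, overlapping DMSO. The part of a shift in phase in the members' changes was not tested.

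Markers of shoot and root were read beside the members. In Col-0 at 24 h the 12 shoot markers summed to between 140 and 175 FPKM in DMSO and between 91.8 and 123 FPKM in Tm, where 3 of 12 fell and none rose (median -0.27), beside 16% of all genes that fell. The root markers summed to between 237 and 330 FPKM in DMSO and between 177 and 210 FPKM in Tm, where 5 of 19 tested fell and none rose (median -0.41). The sums of both lists did not overlap between treatments, and the medians lay closer to 0 than the members' median of -1.69. At 12 h, 2 shoot markers rose and 1 fell (median -0.21), and 4 root markers fell (median -0.36), beside 14% of all genes that fell. The part of tissue composition in the members' changes was not tested.

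Other genes of the chloroplast moved with the members. In Col-0 at 24 h all 15 genes of the Calvin cycle fell (median -1.19), 11 of 12 genes of electron transport and ATP synthase (-1.21), and 13 of 16 tested genes of chlorophyll synthesis (-0.85), among them PORB, which reduces protochlorophyllide in the light (-2.39, adjusted p = 0.00015), and CHLH, the large subunit of magnesium chelatase (-0.80). At 12 h, 13, 10 and 13 genes of these lists fell. Of all genes, 16% fell at 24 h and 14% at 12 h. Of 7 genes of chlorophyll breakdown, 4 rose and 2 fell at 24 h, and SGR1, the magnesium dechelatase, rose by 1.25. The share of all genes that rose in Tm was not taken. In mock seedlings the Calvin cycle genes peaked as RBCS1B did. All 15 rose between 0 and 12 h (median 1.00, background 8.98%) and 13 fell between 12 and 24 h (background 8.97%).

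Among 17 regulators of photosynthesis genes, 3 rose and 7 fell at 24 h in Col-0, beside 16% of all genes that fell. The share that rose was not taken. GLK2, an activator of antenna genes, measured 86.2, 89.3 and 72.9 FPKM in DMSO and 44.3, 32.7 and 38.6 FPKM in Tm (-1.09, SE 0.13, adjusted p = 0.00203, limma), and GLK1 fell by 0.48 on the log2 scale. PIF4, a phytochrome-interacting factor, was lower by -1.76 and HYH, a homolog of HY5, higher by 1.46. Of the 4 light stress proteins related to the antenna, ELIP1, ELIP2 and OHP1 fell at 12 h (-1.38, -1.19 and -0.96), and OHP2 stood at -0.14. At 24 h ELIP1 and ELIP2 rose (0.79 and 0.58) and OHP1 and OHP2 fell (-0.77 and -0.55), and their sum was between 416 and 490 FPKM in DMSO and between 342 and 381 FPKM in Tm.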

How the data were processed

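RNA-seq was made from 54 libraries and ChIP-seq from 2 replicates per protein and time-point. Per the labels, the authors trimmed reads with cutadapt 1.8.1, mapped them to TAIR10 with TopHat2 2.0.14 and Bowtie2 2.2.4, and deposited FPKM from Cufflinks 1.3.0. They deposited 6 peak lists called with MACS2 2.1.2 at an IDR under 0.05, keeping peaks that overlapped one in DMSO only where they were more significant by a set factor, each peak with a score. Read counts were not used here, and multi-mapped reads limit paralogs.

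Groups came from the sample labels. Of 34133 genes, 21864 with FPKM over 1 in a library were tested with limma 3.58.1 (R 4.3.3) on log2(FPKM + 1), trend on, 6 libraries per fit, and fold changes are on that scale, which understates the change of low genes. "Rose" and "fell" mean an adjusted p under 0.05. Called genes had an adjusted p under 0.01 with a change over 2-fold. A background is the share of all genes tested that passed the same threshold in the same comparison. None was taken for counts at an unadjusted p, by fold alone or by groups that did not overlap, nor for some counts of the other lists. Differences in response used the log2 fold change of each replicate number. Scripts were tested on simulated data. All 46 members could be named, and values in every library were given for the largest change of a family and for paralogs. Other lists gave up to 4 large changes and some fixed genes. Members and lists were chosen with earlier results of these data known. The DIN genes, ERDJ3B, ELIP2, OHP1 and OHP2 were named after their values were seen.

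Positions and sequences came from TAIR10.1 (RefSeq), in which 654 of 674 promoter peaks lay within 1 kb of the start of the gene they name. Windows of 50 bases were compared with the whole genome. Depth was read from 1968 low genes, of whose 31639 values 76.4% lay within 0.1 of a whole multiple of a step, where even values would give 20%. This covers counting error only. Alternatives were another pseudocount, scaling, 2 filters, no trend, 1 fit over all libraries, a block and each replicate left out.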

Additional observations from a re-analysis of the deposited data

Results flagged for a closer look

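In Col-0 the log2 fold change between Tm and DMSO was lower at 24 h than at 12 h for 28 of the 46 genes, by limma on the difference itself (adjusted p under 0.05).

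A few genes had all Tm libraries on one side of the DMSO libraries in one group and on the opposite side in another. How many of all genes did so was not counted, so whether members did so more often is not known. The difference was not tested except between Col-0 and *bzip60-2* and between 12 and 24 h. Between Col-0 and *bzip60-2* at 0 h these were 2 genes, PSAE1 and PSBR, lower in Tm in Col-0 (log2 fold change -0.17 for each) and higher in *bzip60-2* (0.23 and 0.13). Their differences of 0.40 and 0.30 did not pass the test (adjusted p = 0.886 and 0.906, limma). Between *bzip28-2* and *bzip60-2* at 0 h it was 1 gene, PSAE1 (-0.51 and 0.23). Within *bzip60-2*, the same 2 genes were higher in Tm at 0 h and lower at 12 h (-1.10 and -0.97). In Col-0 between 0 and 24 h there were 2 genes, LHCB1.4 and LHCB4.3, higher in Tm at 0 h (1.98 and 0.69) and lower at 24 h (-2.43 and -0.51). Between 12 and 24 h in Col-0 it was 1 gene, LHCB1.4 (0.51 and -2.43), for which the difference of -2.95 passed the test.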

How the results depend on the processing

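For 389 values of single genes, 367 of which passed the test, 4991 alternatives were run. Of these, 3663 stayed on the same side of the threshold, 1307 no longer passed, 15 passed where the reported value did not, and 6 reversed in direction, all for values that had not passed. All 6 reversals came from leaving out 1 replicate. Over these, the log2 fold change of LHCB1.4 in *bzip60-2* at 24 h ran from -1.03, without DMSO replicate 2, to 0.014, without DMSO replicate 3, and that of LHCB4.3 in Col-0 at 12 h from -0.22 to 0.028, the latter without Tm replicate 1. The Col-0 difference between 24 and 12 h ran from -0.20 to 0.18 for LHCB1.1, below 0 without replicate 1 at 24 h (-0.11) or replicate 3 at 12 h, and from -0.18 to 0.18 for PSBS, below 0 without replicate 2 at 24 h or replicate 3 at 12 h (-0.028). The counts of genes changed as follows, and the cause was not tested.

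Without a filter, the called counts were 0 in Col-0 at 0 h, 4 (Col-0), 6 (*bzip28-2*) and 1 (*bzip60-2*) at 12 h, and the genes that fell numbered 0 in *bzip28-2* at 0 h and at 24 h and 2 in *bzip60-2* at 24 h. In mock seedlings no filter gave 13 and 20 genes in Col-0 for 12 and 24 h against 0 h, 4 in *bzip28-2* and 5 in *bzip60-2* for 24 h. For genotypes it gave 0 for *bzip60-2* DMSO at 12 h, 3 and 19 for *bzip28-2* and *bzip60-2* Tm at 12 h, and 16 for the Col-0 difference between 24 and 12 h. With a mean FPKM of at least 1, the changed genes numbered 2 in Col-0 and 4 in *bzip28-2* at 0 h, and 17 in *bzip28-2* and 11 in *bzip60-2* at 24 h, and the called genes 17 and 1 in *bzip60-2* at 12 and 24 h. It gave 19 and 31 for 24 against 0 h in *bzip28-2* and *bzip60-2* DMSO, 4 and 3 for *bzip60-2* DMSO at 0 and 12 h, 13 for *bzip28-2* Tm at 12 h, and 6 and 1 for *bzip60-2* Tm at 0 and 24 h. Without the trend, 2 genes changed in Col-0 and 5 in *bzip28-2* at 0 h, 15 and 26 rose to 24 h in *bzip28-2* and *bzip60-2* DMSO, and 3, 4 and 5 differed for *bzip60-2* in DMSO at 0 h and 12 h and in Tm at 0 h.

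A pseudocount of 0.1 gave 3 called genes in *bzip60-2* at 12 h and 4 that fell in *bzip28-2* at 24 h. Scaling by the median ratio gave 3 called in *bzip60-2* at 12 h, 3 that fell in *bzip28-2* at 0 h, 13 in Col-0 DMSO for 24 against 12 h and 2 for *bzip28-2* Tm at 12 h. Using 1 fit over all 54 libraries gave 0 called in Col-0 at 0 h, 37 in *bzip60-2* at 12 h, and 45 and 13 in *bzip28-2* and *bzip60-2* at 24 h. There the genes that fell were 0 in *bzip28-2* at 0 h, 45 in *bzip60-2* at 12 h, and 45 and 33 at 24 h, the mock counts 13 (Col-0, 12 h), 19 and 36, and the counts for *bzip60-2* DMSO 5 and 16 at 0 and 12 h. At an unadjusted p under 0.01, 1 and 3 genes differed in response in *bzip28-2* at 0 and 12 h. Among the peaks above the median score, 0 members had a bZIP60 peak at 24 h.

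Pairing of the samples by replicate number was weak and uneven between genotypes. In Col-0 most samples correlated best with their own number, and at 12 h all of them did (r = 0.052, 0.11 and 0.062). In *bzip28-2* few samples did, and in *bzip60-2* none. Deviations of samples with the same number correlated at r between -0.28 and 0.13, above 0.1 in 5 of 27 pairs, and 9 of 27 correlated best with their own number. With a replicate block the called counts were 0 in Col-0 and *bzip60-2* at 0 h and 0 in *bzip60-2* at 12 h. The changed counts with the block were 0 in each genotype at 0 h, 13 in *bzip60-2* at 12 h, 0 and 2 in *bzip28-2* and *bzip60-2* at 24 h, 12 and 5 in Col-0 DMSO for 12 and 24 against 0 h, 4 and 2 in the mutants for 24 h, 0 for *bzip60-2* DMSO at 12 h, 5 for *bzip28-2* Tm at 12 h and 0 for *bzip60-2* Tm at 0 h. Without the pairing, 24 genes differed between 24 and 12 h in Col-0.

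Leaving out each replicate in turn, the called counts ran from 0 to 0 in Col-0 and *bzip60-2* at 0 h, from 1 to 7 (Col-0), 4 to 10 (*bzip28-2*) and 0 to 2 (*bzip60-2*) at 12 h, and from 9 to 41, 0 to 4 and 0 to 3 at 24 h. The genes that fell ran from 0 to 3 in *bzip28-2* at 0 h, from 12 to 29, 16 to 38 and 13 to 34 at 12 h, and from 0 to 42 and 0 to 28 in the mutants at 24 h. In mock seedlings the ranges were 8 to 20, 5 to 31 and 13 to 26 in Col-0 for 12 against 0, 24 against 0 and 24 against 12 h, 1 to 18 in *bzip28-2* and 0 to 41 in *bzip60-2* for 24 against 0 h. For genotypes they were 0 to 4 (*bzip60-2* DMSO, 12 h), 0 to 8 (*bzip28-2* Tm, 12 h), 0 to 2 and 4 to 42 (*bzip60-2* Tm, 0 and 12 h), for differences in response 0 to 2 (*bzip60-2*, 12 h), and for the Col-0 difference between times 5 to 29. With 3 replicates and 50-base reads, small differences and single copies could not be resolved.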
